A study of Homo sapiens with 8 samples.

Results

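The replication-dependent histone genes are the protein-coding genes named H1-1 to H1-6, or H2AC, H2BC, H3C or H4C followed by a number. By symbol there were 69 such genes in GENCODE v44, and 65 of them had a row among the 60725 genes of the count table. These 65 comprised 6 H1, 15 H2A, 18 H2B, 11 H3 and 15 H4 genes, of which 53 lie on chromosome 6, 11 on chromosome 1 and 1, H4C16, on chromosome 12. Counts of H2AC18, H2AC19, H3C2 and H3C3 were not analysed here, and these genes enter the sequence searches alone.

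Counts came from 8 libraries of polyadenylated RNA from HAP1, a near-haploid human cell line, made 144 h after lentiviral delivery of a guide RNA and puromycin selection. All cells, controls included, were of 1 clone, SC9, that stably carries dCas9-KRAB, a catalytically dead Cas9 fused to a repressor domain that silences the promoter to which a guide RNA leads it (CRISPRi). The guide RNA targeted ADAM22 in the 3 control libraries, NELFE in 3 libraries and NELFB in 2 libraries. Use of a single clone and 2 NELFB libraries limits what these groups can stand for. Libraries held between 22037423 and 24444185 counts, and levels below are given in CPM, the reads of a gene scaled to a fixed library total that is first corrected for composition by the TMM method. On this scale 3 reads are worth 0.129 CPM on average.

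These histones package newly made DNA, and their genes are transcribed mainly in S phase under NPAT. Their mRNAs are unusual among those of animals in that most end in a conserved stem-loop rather than a poly(A) tail. The stem-loop binds SLBP, and the pre-mRNA is cut just after it with the help of the U7 snRNP. NELF, the negative elongation factor that holds RNA polymerase II close to the promoter, is also known to associate with the nuclear cap-binding complex and to take part in forming these 3′ ends. When cutting fails, transcription runs on to downstream poly(A) signals. Since the libraries were made from polyadenylated RNA, a count here measures the polyadenylated fraction of a histone gene's transcripts and any other RNA carried through the selection, and not its total mRNA.

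The stem-loop itself was present in all members. A search for the histone stem-loop consensus, on the coding strand within 100 bases after the coding end, found it in 69 of 69 histone genes and in 4 of 19752 other protein-coding genes (0.02%), namely H2AX, EIF3I, H3-4 and H3-7. The sequences below show the form shared by most families, the form of H4 and a mixed form, with the paired stem bases in capitals and the loop in lower case. They lie on GRCh38 at chr6:26124669-26124684 on the plus strand for H2AC6, chr6:26285131-26285146 on the minus strand for H4C8, and chr6:27133515-27133530 on the plus strand for H2AC11.
H2AC6: GGCUCUuuucAGAGCC
H4C8: GGCCCUuuucAGGGCC
H2AC11: GGCUCUuuucAGGGCC
All 15 H4 genes carried the stem arms of H4C8. The arms of H2AC6 were shared by all 6 H1, all 18 H2B, all 13 H3 and 15 of 17 H2A genes, so that the stem separated H4 from the other families apart from H2AC11, with a mixed stem, and H2AC15, with a changed first arm. A poly(A) signal hexamer (AATAAA) followed the stem-loop within 1000 bases in 32 of the 69 genes. It came as early as base 13 after the stem-loop in H1-2 and H2BC5.

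The guide RNAs lowered their targets. NELFE stood at 50.5, 49.4 and 48.1 CPM in control and at 2.41, 2.37 and 2.98 CPM after its own depletion (log2 fold change -4.26, SE 0.11, edgeR adjusted p = 2.15e-08). NELFB stood at 74.4, 72.7 and 79.1 CPM in control and at 3.07 and 2.78 CPM after its own depletion (log2 fold change -4.69, SE 0.11, edgeR adjusted p = 4.02e-09). In the NELFE knockdown NELFB was also lower, by a log2 fold change of -0.24 (SE 0.07, edgeR adjusted p = 0.0481), a call that was lost without most single libraries and with DESeq2 size factors, no filter or only the libraries compared.

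Histone genes were sparsely counted in control cells. Of the 65 genes, 15 had no read in any of the 8 libraries, 30 had more than 3 reads in at least 1 control library, and 37 in at least 1 library of any group. Together they drew 765, 900 and 939 reads in the control libraries, 5195, 3975 and 2927 in the NELFE knockdown and 6457 and 4874 in the NELFB knockdown. Every knockdown library was thus above every control library.

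After normalization the summed level was 30.6, 39.9 and 41.1 CPM in control, 215.9, 171.0 and 136.2 CPM in the NELFE knockdown and 267.9 and 208.2 CPM in the NELFB knockdown. The control mean was 37.2 ± 5.73 CPM (SD, n = 3). It was 174.3 ± 39.9 CPM with NELFE depleted (SD, n = 3; 4.69-fold) and 238.0 ± 42.2 CPM with NELFB depleted (SD, n = 2; 6.40-fold). In these bulk samples a larger share of cells with such transcripts and more of them per cell cannot be told apart.

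**Figure D1:**
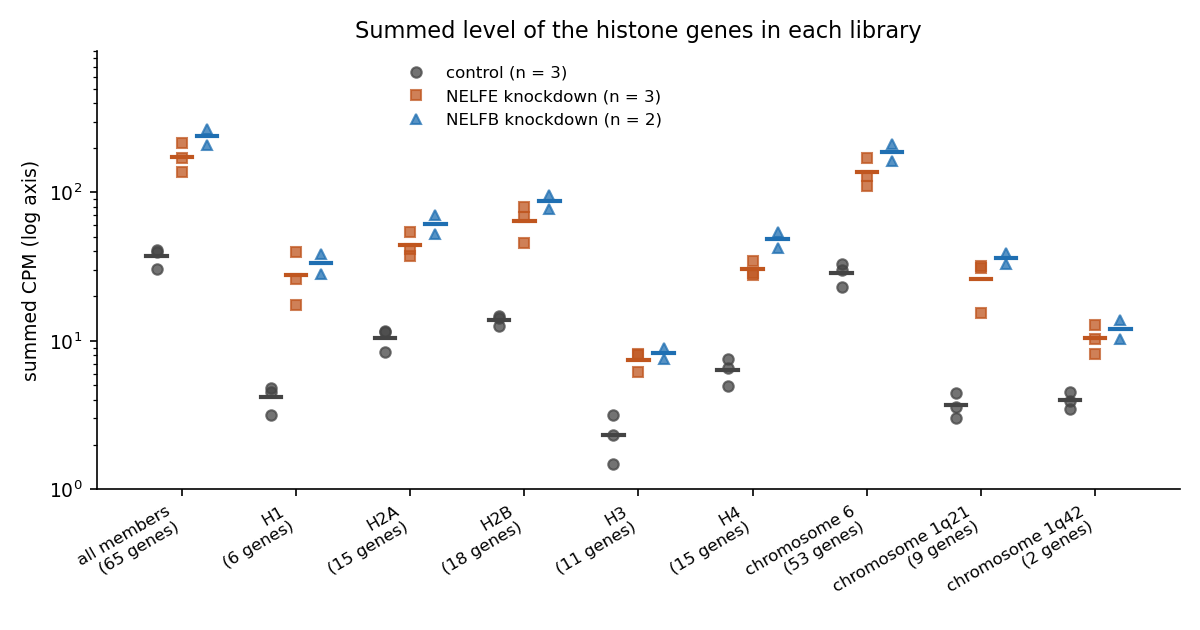
Summed TMM-scaled CPM (log axis) of all 65 histone genes, of the 5 families and of the chromosome 6, 1q21 and 1q42 genes in each library; each symbol is 1 library and the bars are group means. In every set the lowest knockdown library is above the highest control library.

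All 5 families took part. The H1 sum went from 4.18 CPM in control to 27.7 CPM with NELFE depleted (6.61-fold) and 33.3 CPM with NELFB depleted (7.96-fold). H2A went from 10.5 to 44.3 CPM (4.24-fold) and 61.3 CPM (5.85-fold). H2B, the family with the most reads, went from 13.9 to 64.6 CPM (4.65-fold) and 87.0 CPM (6.27-fold).

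H4 was similar to H2B in the NELFE knockdown and higher in the NELFB knockdown, with 6.37 CPM in control against 30.3 CPM (4.76-fold) and 48.3 CPM (7.58-fold). H3 had the smallest fold changes, from 2.31 to 7.45 CPM (3.22-fold) and 8.22 CPM (3.55-fold). No test was made between families. The places of H1 and H2A in this order rest on single genes. Without H1-2 the log2 ratio of the H1 sum was 0.75 and 1.39 in place of 2.73 and 2.99, and without H2AC6 that of H2A was 1.19 and 1.5 in place of 2.08 and 2.55, all below the 1.69 and 1.83 of H3.

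The shares of the families in the histone reads are given without a test. H2B held 37.3% of the summed CPM in control, 37.1% in the NELFE knockdown and 36.6% in the NELFB knockdown. H3 held 6.22%, 4.28% and 3.45%, and H1 11.2%, 15.9% and 14.0%. H4 held 17.1%, 17.4% and 20.3%, and H2A 28.1%, 25.4% and 25.7%. Which genes led did change. In control, H2AC11, H4C9 and H1-2 held the largest shares (10.9%, 9.79% and 9.51%), whereas H2AC6 led with NELFB depleted (16.5%), followed by H2BC21 (13.6%) and H1-2 (13.3%). With NELFE depleted H2AC6 and H1-2 were level (15.3% each), followed by H2BC21 (13.3%). The 6 leading genes made up 55.4% of the sum in control, 64.5% in the NELFE knockdown and 66.5% in the NELFB knockdown.

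Read counts sufficed to test 26 histone genes in each knockdown and 23 when the 5 knockdown libraries were pooled, and 39 genes of the table were not tested. A gene can enter this set through reads in the knockdown libraries alone, as did H2AC8, H2BC6, H2BC7, H2BC9, H2BC17, H2BC18, H4C4 and H4C5. Calls of such genes add no support for an increase, and the following counts describe the tested genes and not the family as a whole. With NELFE depleted, 21 of 26 (80.8%) were called higher and 0 lower, where 7.92% of all 16852 genes tested were called higher and 7.04% lower. With NELFB depleted, 24 of 26 (92.3%) were called higher and 0 lower, against 10.6% higher and 8.88% lower among all genes. All 23 were called higher in the pooled comparison, in which 13.3% of 16367 genes were higher and 12.7% lower.

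The median log2 fold change of the tested histone genes was 1.88 (range 0.28 to 3.67) for NELFE and 2.39 (from 0.74 upward) for NELFB. The largest fitted value for NELFB, 5.67, was that of H2BC9. This gene had 0, 0 and 1 reads in control and passed the filter only through the NELFB libraries, so 5.67 is not an exact fold. Over all genes the medians were near 0 (-0.005 and -0.003). The 95th percentile of all genes was 0.89 and 1.14. Histone genes made up 11 of the 111 genes called higher by a log2 fold change above 2 in the NELFE knockdown, and 15 of 227 in the NELFB knockdown. These counts and the next one include H2BC6, H2BC18 and H4C5, which passed the filter only through knockdown libraries, where they are high. In 22 of 23 genes all 5 knockdown libraries were above all 3 control libraries, as in 14.7% of all genes tested. The exception was H1-4. The comparisons share their control libraries and are not independent of each other.

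**Figure D2:**
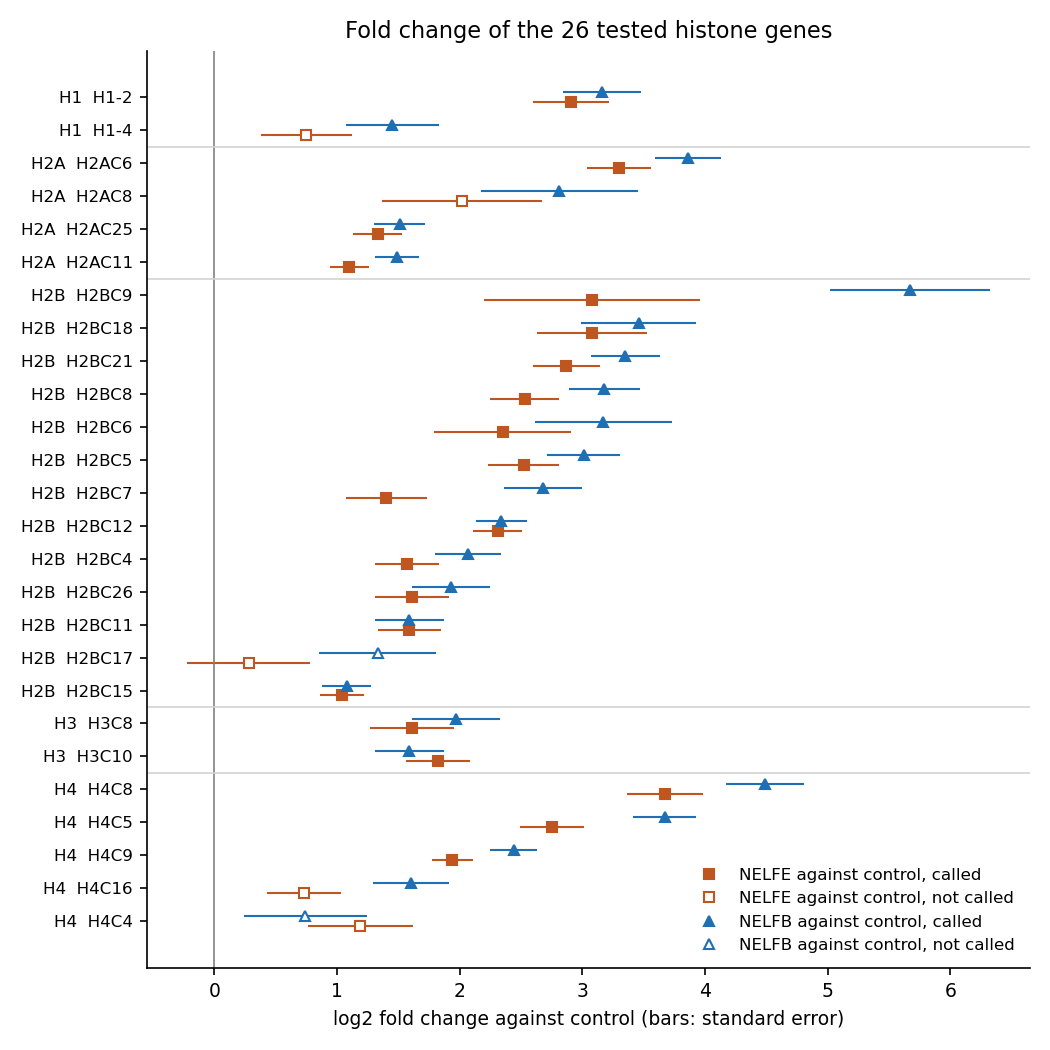
Log2 fold change against control (x axis) of the 26 tested histone genes, by family, for the NELFE (squares) and NELFB (triangles) knockdowns, with standard errors; filled symbols passed an edgeR adjusted p of 0.05. Every value is above 0, and H4C8 stands highest among H4 genes in both knockdowns. Values of H2AC8 and H2BC9, at the floor in control, are fitted and not exact.

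Among linker histones, which bind the DNA between nucleosomes, only H1-2 and H1-4 had enough reads to test. H1-2 (chr6:26055740-26056470, minus strand) was at 2.60, 4.03 and 3.98 CPM in control, 38.2, 24.9 and 16.7 CPM in the NELFE knockdown and 37.1 and 26.2 CPM in the NELFB knockdown. The knockdown libraries lay well above the controls, with NELFE replicate 3 the lowest of the 5. The log2 fold changes were 2.91 (SE 0.31, edgeR adjusted p = 0.000565) and 3.16 (SE 0.32, adjusted p = 0.000277). H1-4 was at 0.481, 0.709 and 0.350 CPM in control, 1.12, 0.903 and 0.558 CPM with NELFE depleted and 1.12 and 1.71 CPM with NELFB depleted. Its NELFE and control libraries overlapped, and it passed the test with NELFB depleted (log2 fold change 1.45, SE 0.38, edgeR adjusted p = 0.0249) and not with NELFE depleted (0.75, SE 0.37, adjusted p = 0.2). The NELFB call was lost without either NELFB library or without control replicate 3.

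H2A and H2B form the dimers that flank the central H3-H4 tetramer of the nucleosome. H2AC6 (chr6:26124145-26139116, plus strand) was at 1.76, 3.19 and 3.20 CPM in control, 33.7, 24.9 and 21.4 CPM with NELFE depleted and 46.5 and 32.2 CPM with NELFB depleted. All knockdown libraries were above all controls, and the NELFE and NELFB libraries overlapped. Its mean level was the highest of the histone genes with NELFB depleted and about that of H1-2 with NELFE depleted (26.6 CPM each). The log2 fold changes were 3.30 (SE 0.26, edgeR adjusted p = 0.00017) and 3.86 (SE 0.27, adjusted p = 2.2e-05).

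The H2A gene most abundant in control cells changed far less. H2AC11 (chr6:27133043-27133535, plus strand) was at 3.32, 3.95 and 4.86 CPM in control, 9.43, 8.13 and 8.33 CPM with NELFE depleted and 12.03 and 10.7 CPM with NELFB depleted. All knockdown libraries were above all controls, at log2 fold changes of 1.10 (SE 0.16, edgeR adjusted p = 0.00308) and 1.49 (SE 0.18, adjusted p = 0.000634). H2AC25, on chromosome 1, was close to it at 1.33 and 1.51. H2AC8 had at most 3 reads in any control library and between 5 and 16 in the knockdown libraries, which makes it at least 2.82-fold higher with NELFE depleted and at least 4.92-fold higher with NELFB depleted, relative to 3 reads per library. It passed the filter on low counts only through knockdown libraries, where it is high, so its p-values add no support for an increase. With NELFB depleted it was called (edgeR adjusted p = 0.0133), and the call was lost without either NELFB library. With NELFE depleted it was not (edgeR adjusted p = 0.062), though it was called with the replicate number as a block or with no filter.

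H2B contributed 13 of the 26 tested genes, and 12 of them were called higher in both knockdowns. With 1 library left out, H2BC6, H2BC7 and H2BC9 could lose the NELFE call (all 3 without control replicate 2, NELFE replicate 1 or NELFE replicate 2), and H2BC6, H2BC11 and H2BC26 lost the NELFB call without NELFB replicate 1. H2BC21 (chr1:149884459-149886682, minus strand) led this family, at 3.24, 3.63 and 2.63 CPM in control, 28.5, 27.4 and 13.8 CPM with NELFE depleted and 35.5 and 29.3 CPM with NELFB depleted. NELFE replicate 3 was again the lowest knockdown library, yet above all controls. The log2 fold changes were 2.87 (SE 0.27, edgeR adjusted p = 0.000402) and 3.35 (SE 0.28, adjusted p = 9.1e-05). H2BC5, H2BC8, H2BC6, H2BC12 and H2BC18 rose by between 2.31 and 3.08 on the log2 scale with NELFE depleted and between 2.34 and 3.46 with NELFB depleted. H2BC4, H2BC11, H2BC26, H2BC7 and H2BC15 rose by between 1.04 and 1.61, and between 1.08 and 2.68. Of these genes H2BC6, H2BC7 and H2BC18 passed the filter on low counts only through knockdown libraries, where they are high. Control reads were 3, 3 and 11 for H2BC6, 11, 9 and 6 for H2BC7, and 4, 12 and 4 for H2BC18. H2BC17 did not pass in either (0.28, SE 0.50, and 1.33, SE 0.48).

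H2BC9 was the single histone gene called between the knockdowns. It had 0, 0 and 1 reads in control, 4, 3 and 4 reads with NELFE depleted and 27 and 20 reads with NELFB depleted. It was thus at least 7.68-fold above 3 reads per library in the NELFB knockdown and near that floor in the NELFE knockdown. It passed the filter on low counts only through the 2 NELFB libraries, where it is high, and so had to differ. In the direct comparison it was lower with NELFE than with NELFB depleted by a log2 fold change of -2.59 (SE 0.44, edgeR adjusted p = 0.0414). No other histone gene was called in this comparison (0 of 26 higher and 1 of 26 lower, against 0.237% and 0.0771% of all genes), and the call was lost when DESeq2 was used or when any 1 knockdown library or control replicate 2 was left out.

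The other members leaned the same way without passing, with a median log2 difference of -0.49 between the NELFE and the NELFB knockdown and 3 of 26 genes above 0. H4C5 differed by -0.92 (SE 0.21, edgeR adjusted p = 0.227) and H2BC7 by -1.28 (SE 0.29, adjusted p = 0.192).

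H3 was thinly measured, with 2 genes tested, both called higher in both knockdowns. H3C10 was at 0.721, 1.06 and 1.05 CPM in control, 4.07, 2.97 and 2.93 CPM with NELFE depleted and 3.40 and 2.26 CPM with NELFB depleted, with log2 fold changes of 1.82 (SE 0.26, edgeR adjusted p = 0.00261) and 1.59 (SE 0.28, adjusted p = 0.00473). H3C8 was at 0.681, 1.06 and 1.84 CPM in control, 3.24, 2.67 and 5.03 CPM with NELFE depleted and 4.65 and 4.66 CPM with NELFB depleted, with log2 fold changes of 1.61 and 1.97. For both genes all knockdown libraries were above all controls, and the knockdowns overlapped. With NELFB replicate 1 left out neither was called for NELFB, and without control replicate 2 H3C8 was not called for NELFE. H3C6, chosen after its values were seen, had 1, 0 and 0 reads in control, 9, 7 and 3 with NELFE depleted and 10 and 9 with NELFB depleted, at least 3.11-fold above 3 reads per library in the latter.

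H4 held the gene with the steepest increase in the NELFE knockdown. H4C8 (chr6:26277609-26285638, minus strand) was at 0.360, 1.11 and 1.23 CPM in control, 13.01, 11.01 and 10.05 CPM with NELFE depleted and 23.0 and 17.0 CPM with NELFB depleted. Control replicate 1 was lower than the other controls, and the knockdown groups overlapped neither the controls nor each other. The log2 fold changes were 3.67 (SE 0.31, edgeR adjusted p = 0.000202) and 4.49 (SE 0.32, adjusted p = 2.5e-05). H4C5 was at 0.360, 0.310 and 0.438 CPM in control, 2.54, 3.01 and 2.00 CPM with NELFE depleted and 4.65 and 4.87 CPM with NELFB depleted, with log2 fold changes of 2.75 (SE 0.26) and 3.67 (SE 0.26). With 9, 7 and 10 reads in control, H4C5 passed the filter on low counts only through knockdown libraries, where it is high.

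H4C9, the most abundant H4 gene of control cells, rose less, by 1.94 (SE 0.17) and 2.44 (SE 0.19), from 3.08, 3.90 and 3.94 CPM in control to 16.1, 12.3 and 13.4 CPM with NELFE depleted and 22.7 and 16.7 CPM with NELFB depleted. H4C16, the single member on chromosome 12, passed only with NELFB depleted (1.60, SE 0.31, edgeR adjusted p = 0.00627; for NELFE 0.73, SE 0.30, adjusted p = 0.126), a call that was lost without NELFB replicate 2. H4C4 passed in neither.

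Per kilobase of annotated exon, the control levels were highest for H4C9 (9.17 CPM per kb), H2AC11 (8.20) and H1-2 (4.84), followed by H2BC12 (3.40), H3C8 (2.41) and H2BC5 (2.18). With NELFB depleted the order at the top was H4C9 (49.6 CPM per kb), H1-2 (43.3), H2AC6 (23.6) and H2AC11 (23.0). H4C8, with its long annotated model, reached only 9.25 CPM per kb despite its steep increase.

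Genes of the chromosome 6 cluster and of the chromosome 1 clusters rose by like amounts as a whole. The 53 chromosome 6 genes summed to 28.6 CPM in control, 136.4 CPM with NELFE depleted (4.77-fold) and 187.2 CPM with NELFB depleted (6.54-fold), and the 11 chromosome 1 genes to 7.67, 36.4 (4.74-fold) and 48.0 CPM (6.26-fold). Without H2BC21 the log2 ratios of the chromosome 1 sum were 1.55 and 1.79 in place of 2.25 and 2.65. Of the tested genes, 17 of 21 on chromosome 6 were called higher with NELFE depleted and 19 of 21 with NELFB depleted, and 4 of 4 on chromosome 1 in both.

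Within each chromosome the blocks were unlike. At 1q21, 9 genes rose from 3.69 to 26.0 CPM (7.05-fold) and 36.0 CPM (9.76-fold). At 1q42, H2AC25 and H2BC26 rose from 3.98 to 10.4 CPM (2.61-fold) and 12.01 CPM (3.02-fold). H2BC21 alone made up 3.17 of the 3.69 CPM at 1q21 in control, and the difference between the bands was not tested.

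On chromosome 6, splitting the cluster wherever neighbours lie over 200 kb apart, a split chosen after the values were seen, gave 4 blocks. The block of 30 genes at chr6:26017032-26285638, which holds H1-2, H2AC6, H2BC5 and H4C8, rose from 14.1 ± 3.19 CPM (SD, n = 3) to 93.1 ± 24.8 CPM (6.60-fold) with NELFE depleted and 135.1 ± 27.9 CPM (9.58-fold) with NELFB depleted. The block of 5 genes at chr6:27125897-27147562, which holds H2AC11 and H4C9, rose from 10.3 ± 1.38 CPM to 33.4 ± 3.82 CPM (3.26-fold) and 42.04 ± 6.84 CPM (4.10-fold). The last block, 16 genes at chr6:27807479-27893891, rose from 4.24 ± 0.650 CPM to 9.91 ± 1.87 CPM (2.33-fold) and 10.1 ± 0.803 CPM (2.38-fold).

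Knockdown libraries were above all control libraries in each of these 3 blocks, and the smallest increase was in the last block. There H2BC15 alone made up 2.92 of the 4.24 CPM in control, and it rose 2.05-fold with NELFE depleted and 2.11-fold with NELFB depleted. The order of the blocks thus depends on single genes. The pair of genes that opens the cluster, H2AC1 and H2BC1, had no reads. The blocks were described without a test.

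**Figure D3:**
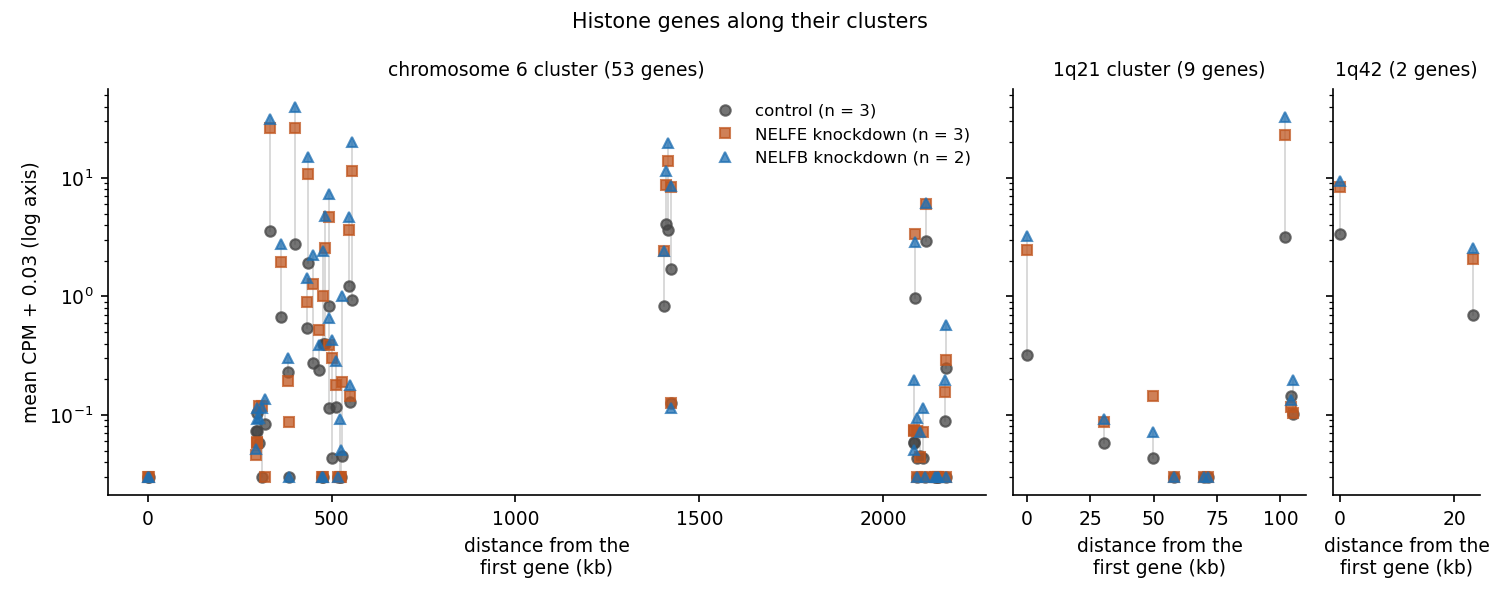
Mean CPM plus 0.03 (log axis) of each histone gene against its distance in kb from the first gene of the chromosome 6, 1q21 and 1q42 clusters, for control (circles), NELFE (squares) and NELFB (triangles); grey lines join control and NELFB. The widest gaps among abundant genes are in the first populated block of chromosome 6, of 30 genes, and at 1q21, for H2BC21.

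Among 20 other protein-coding genes lying between histone genes of a cluster, 13 were tested in the pooled comparison, with 1 called higher and 2 lower and a median log2 fold change of -0.12. These counts are near the shares of all genes (13.3% higher and 12.7% lower). With 1 library left out, between 1 and 4 of the neighbours were called lower. TRIM38, a ubiquitin ligase, fell by 0.45 on the log2 scale (edgeR adjusted p = 0.00862) and BTN3A2, a butyrophilin, fell by 0.89 (adjusted p = 0.0207), a call that was lost without control replicate 1 and with no filter. The gene that rose, ENSG00000282988, had 4, 5 and 5 reads in control, 32, 34 and 13 with NELFE depleted and 38 and 32 with NELFB depleted (pooled log2 fold change 2.65, SE 0.39, edgeR adjusted p = 0.000918).

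The annotated exons of ENSG00000282988 cover 96.6% of the exon bases of H3C4 and 85.3% of those of H2AC7, which are both at 0 reads. HFE, an iron-homeostasis gene within the block of 30, was not tested. It had 2, 1 and 0 reads in control, 10, 9 and 7 with NELFE depleted and 8 and 7 with NELFB depleted, and its exons share 430 bases with those of H2BC4. Counting was unstranded, so reads of overlapping genes on opposite strands cannot be told apart. Exon sharing with another gene affected 9 of the 65 histone genes, of which H2BC18, H2BC26, H2BC4 and H2BC6 were tested.

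Many H2A and H2B genes are arranged head to head, with their starts on either side of a shared promoter. Among histone genes 13 such pairs of starts lay within 400 bases of each other, of which 12 joined an H2A and an H2B gene and 1 joined H3C12 and H2BC17. Both partners were tested in 4 pairs. With NELFB depleted H2BC11 and H2AC11 rose by 1.59 (SE 0.28) and 1.49 (SE 0.18), and H2BC26 and H2AC25 by 1.93 (SE 0.32) and 1.51 (SE 0.21). H2BC8 rose by 3.18 (SE 0.29). Its partner H2AC8, at the floor in control, was at least 4.92-fold higher relative to 3 reads per library, so their gap is not known. H2BC4 rose by 2.07 (SE 0.27) and H2AC6 by 3.86 (SE 0.27), the widest gap among the tested pairs with both partners above the floor in control. H2BC21 rose by 3.35 (SE 0.28), while H2AC20, chosen after its values were seen, had 2, 3 and 3 reads in control and 4 and 1 with NELFB depleted. No test of partner against partner was made, and 19.8% of the 65-base windows of H2AC20 recur elsewhere in the genome.

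The sequences between these starts are shown because they are what partners share. They are read on the plus strand of GRCh38. Capitals mark, on either strand, the TATA box searched as TATAAA, the CCAAT box searched by that name's letters, and the octamer searched as ATTTGCAT. They span chr6:27132796-27133042, chr6:26123927-26124144 and chr1:149886683-149886917.
H2BC11/H2AC11: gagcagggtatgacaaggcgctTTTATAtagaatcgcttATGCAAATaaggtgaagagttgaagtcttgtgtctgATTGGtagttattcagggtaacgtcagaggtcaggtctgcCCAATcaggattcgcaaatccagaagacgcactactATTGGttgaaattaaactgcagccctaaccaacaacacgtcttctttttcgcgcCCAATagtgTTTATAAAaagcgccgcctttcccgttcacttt
H2BC4/H2AC6: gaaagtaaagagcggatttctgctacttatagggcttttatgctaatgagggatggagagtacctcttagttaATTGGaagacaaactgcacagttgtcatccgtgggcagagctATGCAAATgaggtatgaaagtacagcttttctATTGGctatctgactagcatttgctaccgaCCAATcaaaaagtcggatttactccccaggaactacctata
H2BC21/H2AC20: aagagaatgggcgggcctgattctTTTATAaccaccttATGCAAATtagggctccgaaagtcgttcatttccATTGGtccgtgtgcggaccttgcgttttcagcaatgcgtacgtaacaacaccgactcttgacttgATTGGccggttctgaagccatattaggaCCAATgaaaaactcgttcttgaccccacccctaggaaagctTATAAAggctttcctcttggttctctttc
The H2BC11/H2AC11 stretch held 3 matches to TATAAA, 4 to CCAAT and 1 to the octamer. The H2BC4/H2AC6 stretch held none to TATAAA, 3 to CCAAT and 1 to the octamer. The H2BC21/H2AC20 stretch held 2, 3 and 1.

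The same motifs marked histone promoters as a class. In RefSeq promoters of GRCh38.p14, from 250 bases before to 50 after the start, 64 histone genes were matched, and TATAAA was found in 65.6% of them against 11.95% of all 27305 genes. CCAAT was found in 84.4% against 35.7%, and the octamer in 40.6% against 1.80%. The octamer, which POU2F1 binds, was seen in 77.8% of H2B, 68.8% of H2A and 9.1% of H3 promoters and in none of the 6 H1 and 13 H4 promoters. CCAAT was in all H1, H2A, H2B and H3 promoters and in 23.1% of H4 promoters. Overlaps between motifs were not removed, and a match says nothing of use.

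The annotated 3′ end divided the genes as well. In 17 histone genes of the table the GENCODE v44 model ran more than 100 bases past the stem-loop, up to 37155 bases in H2BC4, and 48 ended within 100 bases of it. Of the long models 13 were tested, with 12 called higher for NELFE and 13 for NELFB, at median log2 fold changes of 1.82 and 2.07. Of the short models 13 were tested, with 9 and 11 called higher, at medians of 1.94 and 2.44. The medians of the short models include H2AC8 and H2BC9, at the floor in control, whose fitted values lay above these medians in both knockdowns. Which set would have the larger median without such genes was not tested. Fewer of the short models were called, and their summed level rose less. It was 17.8 CPM in control and 72.8 and 96.3 CPM in the knockdowns, against 19.4, 101.6 and 141.7 CPM for the long models. Reads that fall beyond an annotated end are not in these counts, and the authors' annotation, Gencode v24, may place some ends differently.

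Near-identical copies limit what could be counted. Every 65-base window recurred in the genome for H2AC18, H2AC19, H3C14, H3C15, H4C14 and H4C15, and over 40% of windows recurred in 13 genes, among them H2BC12 (47.1%) and H2BC18 (64.7%). Values of those genes are uncertain. In 42 genes no window recurred, and 9 of the genes at 0 reads were among them. These 9 include H3C4 and H2AC7, which share 96.6% and 85.3% of their exon bases with ENSG00000282988 on the same strand. Their 0 reads need not mean that no transcript was present.

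No gene outside the family that carries the stem-loop was called higher. H2AX, the variant phosphorylated at DNA breaks, has both stem-loop and polyadenylated mRNAs, and was at 87.4, 92.7 and 92.5 CPM in control, 64.3, 66.9 and 69.1 CPM with NELFE depleted and 53.4 and 64.9 CPM with NELFB depleted. It fell by 0.44 (SE 0.08, edgeR adjusted p = 0.00873) and by 0.62 (SE 0.10, adjusted p = 0.00245) on the log2 scale. EIF3I, a translation factor subunit, did not pass in either (-0.08 and -0.28). H3-4 had 0, 0 and 0 reads in control and at most 3 in any knockdown library, and H3-7 had none.

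Replication-independent histones are mostly made from polyadenylated mRNAs throughout the cell cycle, although H2AX also has stem-loop mRNAs. Those listed summed to 1742 ± 173.6 CPM (SD, n = 3) in control, 1760 ± 115.9 CPM with NELFE depleted and 1548 ± 25.4 CPM with NELFB depleted. Of 10 tested in the pooled comparison, 1 rose and 3 fell (1 without any 1 of 5 libraries), where 13.3% of all genes were called higher and 12.7% lower. The counts of the lists below are to be read against the same shares, and several are near them. H3-3B, a source of variant H3.3, rose by 0.41 (SE 0.07, edgeR adjusted p = 0.00199), H2AX fell by 0.51 and H2AZ1 by 0.57 (adjusted p = 0.00156 and 0.0284). H2AZ1, the most abundant of them, was at 510.5, 677.1 and 745.8 CPM in control, 426.6, 434.8 and 587.7 CPM with NELFE depleted and 363.3 and 353.5 CPM with NELFB depleted, and was called lower for NELFB (log2 fold change -0.85, SE 0.17, edgeR adjusted p = 0.00841) and not for NELFE (-0.42, SE 0.15, adjusted p = 0.0889). Its NELFB call was lost without either NELFB library. The pooled call of H2AZ1 was lost with no filter and without any 1 of 5 libraries.

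Most genes that serve histone expression were not called in the pooled comparison. Of 9 transcription regulators tested in the pooled comparison, HINFP, which binds H4 promoters, rose by 0.34 (edgeR adjusted p = 0.00944), and 3 fell, including CASP8AP2 by 0.32 (not called without control replicate 2), E2F1 by 0.51 and POU2F1 by 0.29 (not called without control replicate 3). With 1 library left out, between 2 and 5 of these regulators were called lower. NPAT itself was not called in the main fit (pooled log2 fold change -0.09, edgeR adjusted p = 0.325). Of 16 genes of histone 3′ processing, 5 fell and 0 rose, and 10 fell without NELFE replicate 3. LSM11, a U7 snRNP subunit, was at 42.2, 38.1 and 38.2 CPM in control, 25.8, 25.7 and 27.8 CPM with NELFE depleted and 22.5 and 24.8 CPM with NELFB depleted, without overlap, and fell by 0.64 in the pooled comparison (SE 0.08, edgeR adjusted p = 0.000484).

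CPSF2, a subunit of the cleavage complex, fell by 0.37 (edgeR adjusted p = 0.00246) and SNRPB, a subunit of Sm rings, by 0.42 (adjusted p = 0.0051). SLBP was at 130.8, 162.6 and 172.5 CPM in control, 116.9, 125.2 and 164.0 CPM with NELFE depleted and 118.0 and 121.3 CPM with NELFB depleted. Its NELFE and control libraries overlapped, and it was not called (pooled log2 fold change -0.27, edgeR adjusted p = 0.125). It was called lower in the pooled comparison with the replicate number as a block (-0.22), without control replicate 1 (-0.38) and without NELFE replicate 3 (-0.37). Among 7 genes of histone mRNA decay 1 fell, EXOSC10, by 0.26 (adjusted p = 0.0219, lost without any 1 of 4 libraries), and among 13 histone chaperones 6 fell and 1 rose. Chaperones called lower numbered 3 without control replicate 2 or either NELFB library and 2 without control replicate 3. CHAF1B and CHAF1A, subunits of chromatin assembly factor 1, fell by 0.74 and 0.46, and SUPT6H rose by 0.32.

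**Figure D4:**
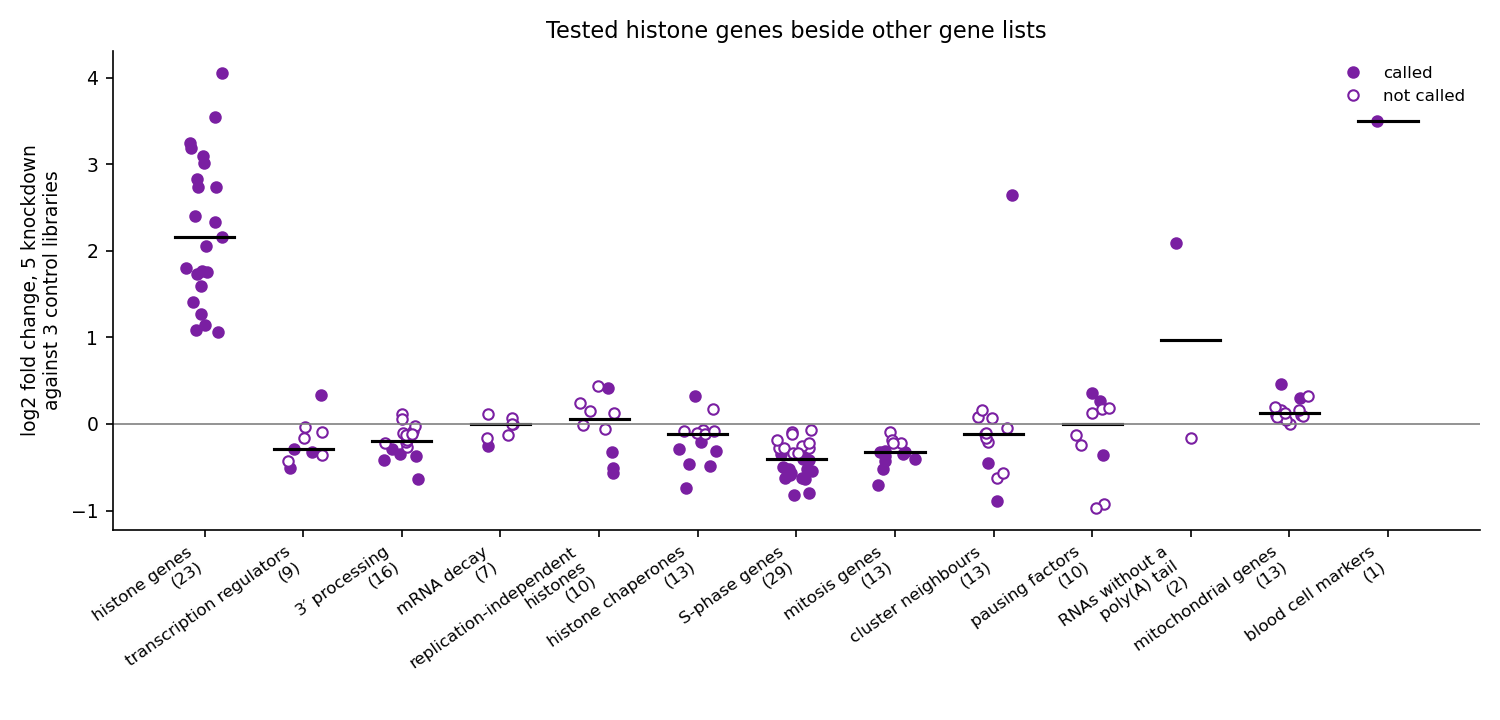
Log2 fold change of the 5 knockdown against the 3 control libraries for each tested gene of the histone family and of 12 other lists (number tested in brackets); filled points passed an edgeR adjusted p of 0.05 and bars are medians. The 23 histone genes lie between 1.06 and 4.06, and the medians of the other lists lie between -0.41 and 0.13, except 0.97 for the 2 RNAs without a poly(A) tail and 3.5 for CD34, the 1 blood cell marker tested. The 2 lowest pausing factors are the targets.

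Other genes of S phase were not called higher with the histone genes. Of 29 S-phase genes tested, 18 fell and 0 rose in the pooled comparison, with 12 lower for NELFE and 17 for NELFB, and 26 fell in the pooled comparison without NELFE replicate 3. Their sum was 5575, 6331 and 7048 CPM in control, 4490, 4582 and 5996 CPM with NELFE depleted and 4252 and 4621 CPM with NELFB depleted. NELFE replicate 3, which had the fewest histone reads of the knockdown libraries, was the highest of them here and lay above control replicate 1, so that NELFE and control overlapped. PRIM1, a primase subunit, fell by 0.82 (SE 0.08, edgeR adjusted p = 0.000111), CDT1, a replication licensing factor, by 0.80 and MCM2, a helicase subunit, by 0.54. Of 13 mitosis genes 9 fell and 0 rose, among them AURKB by 0.71, CDK1 by 0.52 and PLK1 by 0.43, and 5 fell without control replicate 2. The part of cell cycle position in the histone values was not tested.

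Among 10 pausing factors tested, the targets included, HEXIM1 and SUPT5H rose by 0.36 and 0.27 and NELFA fell by 0.36 in the pooled comparison. SUPT5H was not called without control replicate 1 or 2.

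RNAs without a poly(A) tail were followed as a sign of how selection worked. The summed level of 15 was 5.91 ± 0.761 CPM (SD, n = 3) in control, 6.20 ± 1.31 CPM with NELFE depleted and 6.20 ± 0.962 CPM with NELFB depleted, with 8 at 0 in all libraries. SNORA73B made up most of it (5.11 CPM on average). The other 14 summed to 12, 6 and 13 reads in control, 38, 26 and 30 with NELFE depleted and 29 and 29 with NELFB depleted. Every knockdown library was above every control, and the mean went from 0.439 to 1.36 CPM (3.11-fold) and 1.22 CPM (2.78-fold). Most of this was 1 RNA, RNU5A-1. Without it the other 13 summed to 8, 2 and 7 reads in control, 13, 12 and 13 with NELFE depleted and 4 and 9 with NELFB depleted, so that the NELFE libraries stayed above the controls and the NELFB libraries overlapped them. The part of such RNAs in the histone values was not tested. Of the 2 tested, RNU5A-1, a spliceosomal RNA, was called higher, with 4, 4 and 6 reads in control, 25, 14 and 17 with NELFE depleted and 25 and 20 with NELFB depleted (pooled log2 fold change 2.09, SE 0.33, edgeR adjusted p = 0.00148).

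Mitochondrial reads, taken as a sign of RNA quality, made up 4.23%, 3.32% and 3.08% of control, 3.84%, 4.04% and 3.92% of NELFE and 4.39% and 4.57% of NELFB libraries, and MT-CO2 and MT-CYB of 13 mitochondrial genes were called higher, or 8 genes without control replicate 1 and 1 gene when any single one of 5 other libraries was left out. Markers of blood cells, from which HAP1 derives, were near 0. The 7 summed to 0.457 CPM in control, 1.15 CPM with NELFE depleted and 2.13 CPM with NELFB depleted, with HBG1 at 0 in all libraries and PTPRC at 2 reads at most. CD34 was the most abundant and the only one tested, with 3, 3 and 1 reads in control, 16, 6 and 28 with NELFE depleted and 67 and 21 with NELFB depleted, and was called higher (pooled edgeR adjusted p = 0.0142), though not with no filter or without control replicate 1 or 3. The part of either in the histone values was not tested.

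Outside the family, the levels most like the histone sum over the 8 libraries were those of TUG1, a long noncoding RNA, TAX1BP1, an autophagy receptor, and APPBP2, all with a Pearson r of 0.993, and of ARHGAP42 and CUEDC1, with 0.991, among 12698 genes compared. These are descriptions over libraries that share the difference between groups. Their changes were smaller than the median change of the tested histone genes. ARHGAP42 went from 6.79 CPM in control to 15.7 and 17.3 CPM, and TUG1 from 237.2 CPM to 295.5 and 311.9 CPM.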

How the data were processed

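Polyadenylated RNA was sequenced as single-end 65-base reads, and per the labels STAR 2.5.4a aligned them to GRCh38 after FastQC 0.11.6. The counts deposited by the authors are raw reads per gene of Gencode v24, without strand, per library. Histone genes were found by GENCODE v44 symbol and Ensembl identifier. The members and gene lists were chosen with earlier results of these data known.

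The test was the robust quasi-likelihood test of edgeR 4.0.16 in R 4.3.3, after filterByExpr and TMM, and p-values were adjusted by Benjamini-Hochberg over all genes tested and called under 0.05. A model of 3 groups gave each knockdown against control and against the other, and a pooled comparison set 5 knockdown against 3 control libraries. The scripts were tested on simulated data. CPM are TMM-scaled, and 3 reads or fewer in every library of a group was taken as the floor. Replicates are labelled as separate samples of each group, and p-values measure the spread between them. Reads are not independent molecules.

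Genes named are members called in any comparison, the 2 most abundant members of each family in control, the targets, at most 3 called genes of each list, and the 5 genes whose levels were most like the histone sum. H2BC17, H4C4, H3C6, H2AC20, POU2F1, SNORA73B, NPAT, SLBP, EIF3I, H3-4, H3-7, H2AC1, H2BC1, H3C4, H2AC7, H3C12, HFE, the marker genes and members described by sequence alone were named outside this rule, with values already known. Calls and fold changes were computed again with DESeq2 1.42.0, its size factors, other filters, the replicate number as a block, only the libraries compared, and each library left out. Sums of families and of chromosomes, bands and blocks were computed again with other scaling, without their most abundant gene and with each library left out. Alternatives for list counts, for sums by place and for the sum of RNAs without a poly(A) tail were chosen after seeing the data. Shares and the split by annotated 3′ end have no alternative.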

Additional observations from a re-analysis of the deposited data

Results flagged for a closer look

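H2BC18 had 1 knockdown library far from the other 4. NELFE replicate 3 stood at 1.35 CPM, whereas the others lay between 2.91 and 3.20 CPM, a gap of 0.841 of the range of the 5 knockdown libraries. It was still above all controls (0.160, 0.532 and 0.175 CPM). The rule behind this flag was set to pick about 1 in 20 groups by chance, and 24 genes were looked at. The 5 libraries come from both knockdowns and are not 1 group, so that rate is only a rough guide. The same library held the fewest histone reads of the 5 (2927), and 64.7% of the 65-base windows of H2BC18 recur in the genome; the part of either in the gap was not tested.

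H2BC9 differed between the knockdowns themselves, with a log2 fold change of -2.59 (SE 0.44, edgeR adjusted p = 0.0414) for NELFE against NELFB, from 4, 3 and 4 reads against 27 and 20. It passed the filter on low counts only through the NELFB libraries, and the call was lost when any 1 knockdown library was left out.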

How the results depend on the processing

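The increases against control kept their direction under all alternatives run, and the 5 family sums did so too. With at least 10 counts in every library, 15 histone genes were called higher for NELFE, 16 for NELFB and 16 in the pooled comparison. The calls missing there were of genes that this filter removed. Under every alternative 14, 11 and 15 were called, with removed genes taken as not called. With 1 library left out, between 17 and 21 histone genes were called higher for NELFE, between 17 and 24 for NELFB and between 20 and 23 in the pooled comparison, with 17, 16 and 20 called in every such fit. The genes lost were H2BC6, H2BC7, H2BC9 and H3C8 for NELFE, all of them without control replicate 2 and up to 3 of them without another single library. For NELFB, H1-4, H2AC8, H2BC11, H2BC26, H2BC6, H3C10 and H3C8 were lost without NELFB replicate 1, H1-4, H2AC8 and H4C16 without NELFB replicate 2, and H1-4 without control replicate 3. In the pooled comparison H1-4 and H4C16 were lost without several single libraries, and H2AC8 fell below the filter without NELFE replicate 1 or either NELFB library. H2BC9 for NELFE and H1-4 in the pooled comparison were not called by DESeq2, and H2AC8 was called for NELFE with no filter. A lone remaining NELFB library was assumed to vary like the other groups.

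Between the knockdowns the 1 gene called lower became 0 with DESeq2, 0 with at least 10 counts in every library, 4 with no filter and between 0 and 1 with 1 library left out. Without its most abundant gene the log2 ratio of a family sum moved to 0.75 and 1.39 for H1, 1.19 and 1.5 for H2A, and 2.58 and 3.39 for H4 in the NELFE and NELFB knockdowns, and to 2.35 for H2B with NELFB depleted. On chromosome 6 alone it was 2.89 for H2A with NELFB depleted, and 1.92 and 2.32 for H2B. With at least 10 reads on average 18 genes were detected in control, in place of 30. Without SNORA73B, left out after seeing the data, the log2 ratio of the RNAs without a poly(A) tail moved from 0.07 to 1.64 for NELFE and from 0.07 to 1.48 for NELFB. Without RNU5A-1 as well it was 1.22 for NELFE and 0.21 for NELFB. The other 39 histone genes of the table had too few reads to test, 15 of them with none in any library.

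Of 29 genes named from the lists, 22 kept their pooled call in every alternative in which they were tested, and 0 changed direction. CASP8AP2, EXOSC10, H2AZ1, SUPT5H, CD34, BTN3A2 and MT-CYB lost it in 1 or more, as did POU2F1, named beside them, without control replicate 3. With 1 library left out, calls of lower level in the pooled comparison ranged between 13 and 26 for the S-phase genes, 5 and 11 for mitosis, 4 and 10 for 3′ processing, 2 and 6 for chaperones and 1 and 3 for replication-independent histones, with 0 S-phase, mitosis or 3′ processing genes called higher in any alternative.

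The groups share replicate numbers, but same-numbered samples did not always deviate together, so the numbers were not taken as pairs. Correlations of their deviations were 0.275, 0.054 and 0.451 between control and NELFE. They were -0.021 and -0.013 between control and NELFB, and 0.103 and 0.199 between NELFE and NELFB. Samples of unlike number gave between -0.377 and 0.231 for control and NELFE, so control replicate 3 and NELFE replicate 3 were the most alike. The 2 NELFB libraries deviate from their mean by opposite amounts, so their values are not separate. With the replicate number as a block, 22 histone genes were called higher for NELFE, 24 for NELFB and 23 pooled. Among the genes named and computed again, the block added calls and took away none. It added H2AC8 for NELFE, SLBP pooled (-0.22) and for NELFB (-0.25), the NELFE gene for NELFB (0.27), and, in single knockdowns only, HINFP, E2F1, EXOSC10, H2AZ1, SUPT6H, NELFA, SUPT5H, TRIM38, BTN3A2 and POU2F1.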
